A study of Mus musculus with 12 samples.

Results

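The 10 genes described here carry out or control killing by cytotoxic lymphocytes and lie outside the gene complex that encodes the lectin receptors of natural killer cells. They are Ncr1, Gzma, Gzmb, Prf1, Nkg7, Eomes, Tbx21, Il2rb, Ccl5 and Fasl. They were chosen by symbol and all 10 were found among the 18221 genes of the spleen RNA tables. Each library was made from the spleen of 1 male mouse, and 12 mice of the ICR stock, which is outbred, formed 4 groups of 3. The Con-sa mice received saline and no busulfan. The B-sa mice received busulfan, an alkylating drug that depletes dividing blood cell precursors, as a single injection of 40 mg/kg at 3 weeks of age, and were then dosed with saline. The B+Con-FMT mice received the same busulfan injection and were then dosed by mouth for 2 weeks with a fecal microbiota transplant (FMT), the luminal content of the small intestine of donor mice given water. The B+A10-FMT mice received busulfan and an FMT from donors given alginate oligosaccharides (AOS), short chains of alginate sugars, at 10 mg/kg. Spleens were taken at 8 weeks of age. Donor material was pooled, so the 3 mice of an FMT group shared its source. The comparisons ask what busulfan did to these genes in the spleen and whether either FMT moved them.

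Natural killer cells and cytotoxic T cells kill a target cell by releasing granules into the contact zone between the cells. Perforin, encoded by Prf1, opens the target membrane and granzymes, the serine proteases encoded by Gzma and Gzmb, enter through it and start cell death. A separate route uses Fas ligand on the killer and the death receptor Fas on the target. The T-box transcription factors Eomes and T-bet (Tbx21) direct the maturation of both cell types, and signals of interleukin 2 and interleukin 15 through their shared receptor chain Il2rb keep the cells alive. In the spleen, natural killer cells reside mostly in the red pulp.

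The unit was RPKM, a read count divided by transcript length and by the depth of the library, so that levels can be set side by side between genes. Depth was estimated from the smallest steps between RPKM values at 14500000 to 15400000 reads per mouse. At this depth the lowest members rested on few reads, approximately 15.7 to 49.6 for the main Fasl transcript and 23.9 to 92.6 for Gzmb, against 98.7 to 582 for Gzma. The markers of the spleen's main cells were present, with Cd79a, Ms4a1, Cd3e, Vcam1 and Spic past the filter on low values. RNA of pancreatic acinar cells, which lie beside the spleen, varied widely. Summed over 10 acinar genes, all of them detected in the files, it ranged from 1014 to 5375 RPKM in Con-sa mice, 357.8 to 2530 in B-sa mice, 6302 to 9696 in B+Con-FMT mice and 366.5 to 7640 in B+A10-FMT mice. The beta globin gene Hbb-bs lay between 9.2 and 30.5 RPKM in the B-sa mice and at 20300 RPKM or more in every Con-sa mouse, and it ran from 36.4 to 20900 RPKM among the B+Con-FMT mice and from 8920 to 13200 among the B+A10-FMT mice. The stock is outbred, and an effect of treatment on this gene and a difference in beta globin type between the mice cannot be told apart. Globin genes as a whole made up 24.9 to 25.9% of the summed RPKM in Con-sa mice and 28 to 32.4% in B-sa mice. The part of acinar RNA or of the globin values in the results that follow was not tested.

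Promoter sequences of 8 of the 10 genes were matched by symbol in the RefSeq table (GRCm38.p6), with a pair of start sites for Ncr1, which made 9 promoters. No promoter was matched for Ccl5 and Il2rb. The 250 bases before the start are shown for 4 genes, for Ncr1 and Gzma because they fell furthest after busulfan, for Prf1 because it rose with both FMTs, and for Nkg7 because its log2 fold change after busulfan was the smallest of the 10. They lie at chr7:4337465-4337714 on the plus strand for Ncr1, chr13:113100982-113101231 on the minus strand for Gzma, chr10:61297586-61297835 on the plus strand for Prf1 and chr7:43436888-43437137 on the plus strand for Nkg7. Capitals mark the letters of a searched motif in either orientation, which are TGTGGT or its reverse complement ACCACA for Runx factors, TTCNNNGAA for STAT factors, GGTGTGA for T-box factors and ACAGGAA for Ets factors.
Ncr1: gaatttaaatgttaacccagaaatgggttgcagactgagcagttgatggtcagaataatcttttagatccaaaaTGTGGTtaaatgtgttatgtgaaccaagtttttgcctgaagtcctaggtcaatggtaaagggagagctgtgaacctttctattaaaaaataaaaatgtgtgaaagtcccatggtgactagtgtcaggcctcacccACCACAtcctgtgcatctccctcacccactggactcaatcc
Gzma: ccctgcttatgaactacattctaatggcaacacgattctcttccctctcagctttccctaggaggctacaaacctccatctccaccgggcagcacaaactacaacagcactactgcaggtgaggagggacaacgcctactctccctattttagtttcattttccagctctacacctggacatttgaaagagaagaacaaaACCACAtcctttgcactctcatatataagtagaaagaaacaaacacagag
Prf1: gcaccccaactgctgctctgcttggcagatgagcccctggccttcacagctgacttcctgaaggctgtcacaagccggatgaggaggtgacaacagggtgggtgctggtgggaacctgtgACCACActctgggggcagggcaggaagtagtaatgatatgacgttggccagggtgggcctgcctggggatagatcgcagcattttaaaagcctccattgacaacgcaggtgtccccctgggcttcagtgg
Nkg7: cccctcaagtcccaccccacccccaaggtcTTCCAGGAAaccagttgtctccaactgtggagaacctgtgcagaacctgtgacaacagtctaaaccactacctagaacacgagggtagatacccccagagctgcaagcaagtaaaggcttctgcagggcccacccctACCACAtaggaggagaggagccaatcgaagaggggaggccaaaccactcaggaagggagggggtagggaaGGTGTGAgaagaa

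Runx letters stood in the promoters of 5 of the 8 genes, Ncr1, Gzma, Gzmb, Prf1 and Nkg7, where the pair of Ncr1 windows overlap and hold the same sites, and in 16.8% of all 32851 promoters of the table, each searched over 300 bases on both strands. In the Ncr1 promoter they occurred on each strand, beginning 176 and 41 bases before the start (positions -176 and -41). The match of Gzma began at position -50, that of Prf1 at -130 and that of Nkg7 at -83. T-box letters were found in the promoter of Nkg7 and in none of the others, against 3.98% of all promoters. STAT letters were found in Gzmb and Nkg7, against 8.30% of all promoters, and Ets letters in none of the 9, against 8.67%. No match shared letters with another. A match describes letters in this window and is not evidence of binding, and Runx3, a factor of the Runx family, is described with the transcription factors below.

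In the Con-sa spleens the 10 genes spanned levels from 1.69 to 119 RPKM. The chemokine Ccl5 was highest at 119 ± 8.37 RPKM (SD, n = 3), followed by Gzma at 51.2 ± 4.16 and Nkg7 at 42.0 ± 1.41. Il2rb lay at 23.5 ± 0.561, Ncr1 at 12.9 ± 0.364 and Tbx21 at 7.82 ± 0.428. The lowest were Prf1 at 4.84 ± 0.28, Eomes at 3.95 ± 0.291, Gzmb at 2.64 ± 0.914 and Fasl at 1.69 ± 0.151. Neighbours in this order did not overlap between mice, except Gzmb and Fasl, since 1 Con-sa mouse had 1.68 RPKM of Gzmb and the Fasl values ran from 1.55 to 1.85. Of the granzymes, Gzma stood far above Gzmb.

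**Figure D1:**
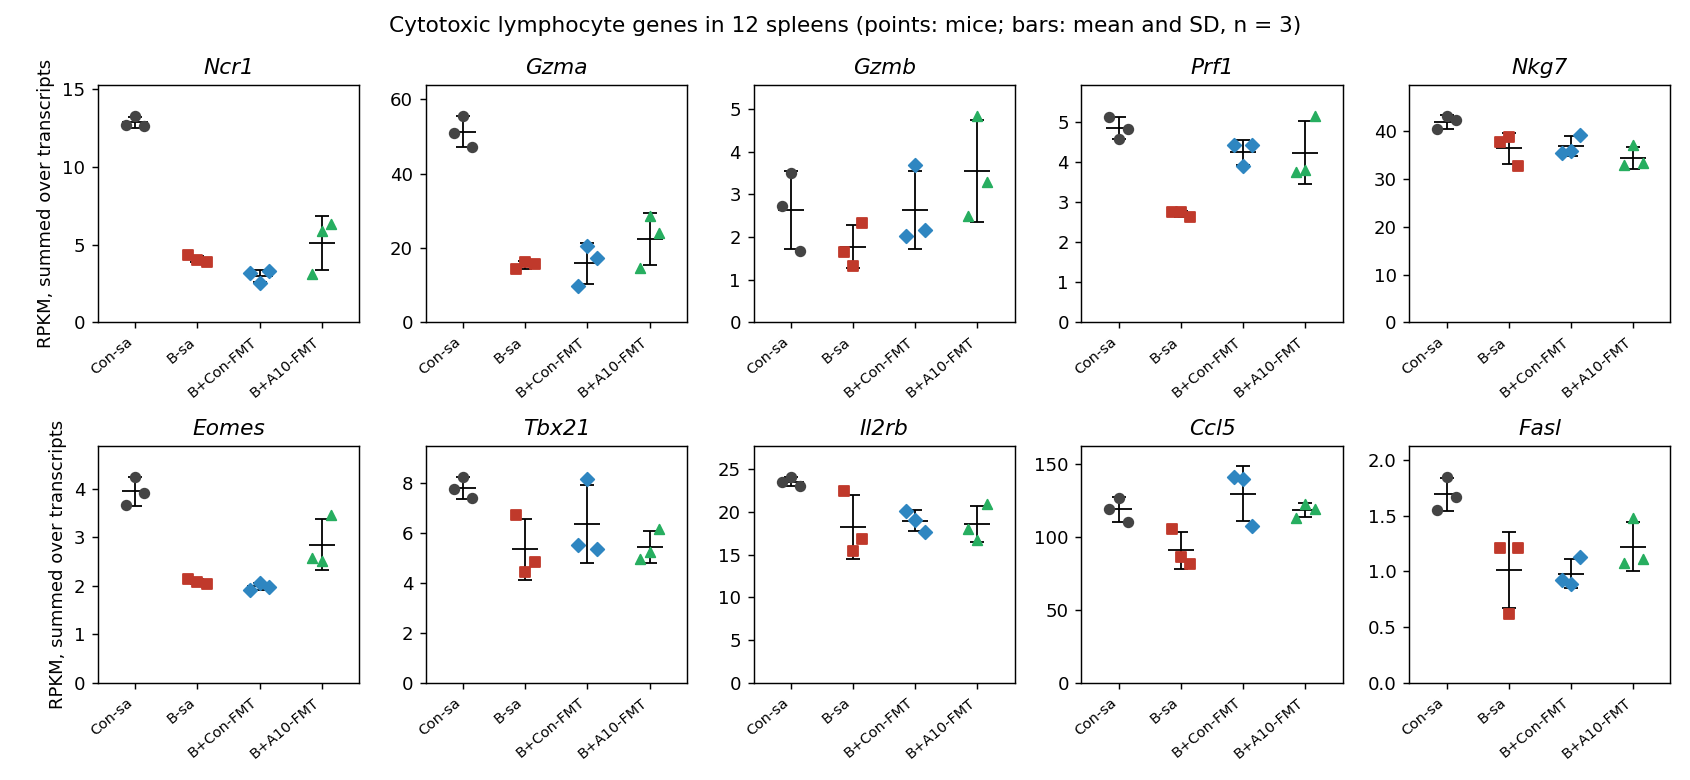
RPKM of each of the 10 genes (y axis, linear from 0, summed over transcripts) in the 4 groups (x axis); points are single mice and bars give the mean and SD of 3 mice. For Ncr1 and Gzma all 9 busulfan-treated mice lie below every Con-sa mouse, whereas the Gzmb values of the groups overlap except between B-sa and B+A10-FMT.

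B-sa versus Con-sa addressed the effect of busulfan without FMT. Of the 10 genes, 8 were called lower and 0 were called higher by limma on log2(RPKM + 1), where called means a Benjamini-Hochberg adjusted p under 0.05 over the 12671 genes tested. Among all genes tested, 9.78% were called lower and 4.73% higher (1239 and 599 genes), and with median-of-ratios scaling of the mice 796 were called lower and 950 higher, with 5 of the 10 genes still called lower. The median log2 fold change was -0.46 over the 10 genes and -0.04 over all genes tested. In 9 of the 10 genes all 3 B-sa mice lay below all 3 Con-sa mice, as did 22.8% of all genes. For each of these 9 genes an exact two-sided permutation test of 3 mice against 3 gave p = 0.1, the smallest it can give. Such a separation fixes this value, so the test adds nothing to it. All 10 passed the filter on low values, which asked for 3 or more mice with an RPKM of 1 or more. In bulk spleen RNA, fewer cytotoxic cells and less RNA of these genes per cell cannot be told apart.

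The natural killer receptor and Gzma fell furthest. Ncr1, which encodes NKp46, an activating receptor carried by nearly every natural killer cell, measured 12.71, 13.29 and 12.62 RPKM in the Con-sa mice and 4.31, 3.99 and 3.91 in the B-sa mice. Its level in B-sa was 31.6% of that in Con-sa, with a log2 fold change of -1.45 ± 0.17 (SE, adjusted p = 0.0022). The mice of each group stood close together and the gap between the groups was many times their spread. Gzma, the tryptic granzyme, measured 50.84, 55.50 and 47.21 RPKM in Con-sa and 14.26, 16.34 and 15.66 in B-sa. B-sa kept 30.1% of the Con-sa level, with a log2 fold change of -1.67 ± 0.28 (adjusted p = 0.00878). No B-sa mouse reached even the lowest Con-sa value.

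The pore-forming protein Prf1 and the T-box factor Eomes fell less steeply. Prf1 measured 5.13, 4.57 and 4.83 RPKM in Con-sa and 2.76, 2.75 and 2.62 in B-sa, a log2 fold change of -0.65 ± 0.10 (adjusted p = 0.00376). The B-sa mice were nearly identical and averaged 56.0% of Con-sa. Eomes, which marks mature natural killer cells and memory cytotoxic T cells, measured 3.67, 4.25 and 3.92 RPKM in Con-sa and 2.14, 2.08 and 2.04 in B-sa. Its level averaged 52.9% of Con-sa, with a log2 fold change of -0.68 ± 0.10 (adjusted p = 0.00296). The calls of Ncr1, Gzma, Prf1 and Eomes held in all 21 alternative settings, those that left out 1 mouse included.

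A further 4 genes fell by less and their calls lay close to the threshold. Tbx21, which encodes T-bet, the factor behind effector functions of type 1 lymphocytes, measured 7.76, 8.27 and 7.42 RPKM in Con-sa and 6.73, 4.46 and 4.87 in B-sa (log2 fold change -0.49 ± 0.15, adjusted p = 0.0466). Il2rb, the receptor chain for interleukins 2 and 15, measured 23.49, 24.12 and 23.00 in Con-sa and 22.43, 15.39 and 16.81 in B-sa (-0.37 ± 0.11, adjusted p = 0.0481). In both genes B-sa replicate 1 stood just under the Con-sa range and the other two B-sa mice well under it. Ccl5, a chemokine stored and released by cytotoxic cells, measured 119.43, 126.91 and 110.20 in Con-sa and 105.31, 86.62 and 81.26 in B-sa (-0.39 ± 0.11, adjusted p = 0.0368). Fasl measured 1.55, 1.85 and 1.67 in Con-sa and 1.21, 0.62 and 1.21 in B-sa (-0.43 ± 0.13, adjusted p = 0.0421), at the low depth given above. These 4 calls did not all hold when 1 mouse was left out. Without any one of the Con-sa mice or without B-sa replicate 2 all 4 were lost, without B-sa replicate 3 all but that of Fasl, and each of Tbx21, Il2rb and Fasl also lost its call without some of the FMT mice, which enter the shared estimate of spread. Across the 12 mice left out in turn, the highest adjusted p was 0.175 for Tbx21, 0.182 for Il2rb, 0.128 for Ccl5 and 0.16 for Fasl, and the direction did not change. With RefSeq's curated transcripts alone, Il2rb gave a log2 fold change of -0.14 and was not called (adjusted p = 0.594).

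Gzmb and Nkg7 were not called. Gzmb, the granzyme that activates caspases, measured 2.73, 3.50 and 1.68 RPKM in Con-sa and 1.66, 1.33 and 2.33 in B-sa, and the groups overlapped (log2 fold change -0.38, 95% interval -0.91 to 0.16, adjusted p = 0.321). Nkg7, a protein of the granule membrane needed for granule release, measured 40.43, 43.20 and 42.29 in Con-sa and 37.64, 38.87 and 32.62 in B-sa. The B-sa mice lay just below the Con-sa mice and averaged 86.7% of them (-0.21, interval -0.36 to -0.05, adjusted p = 0.0707).

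**Figure D2:**
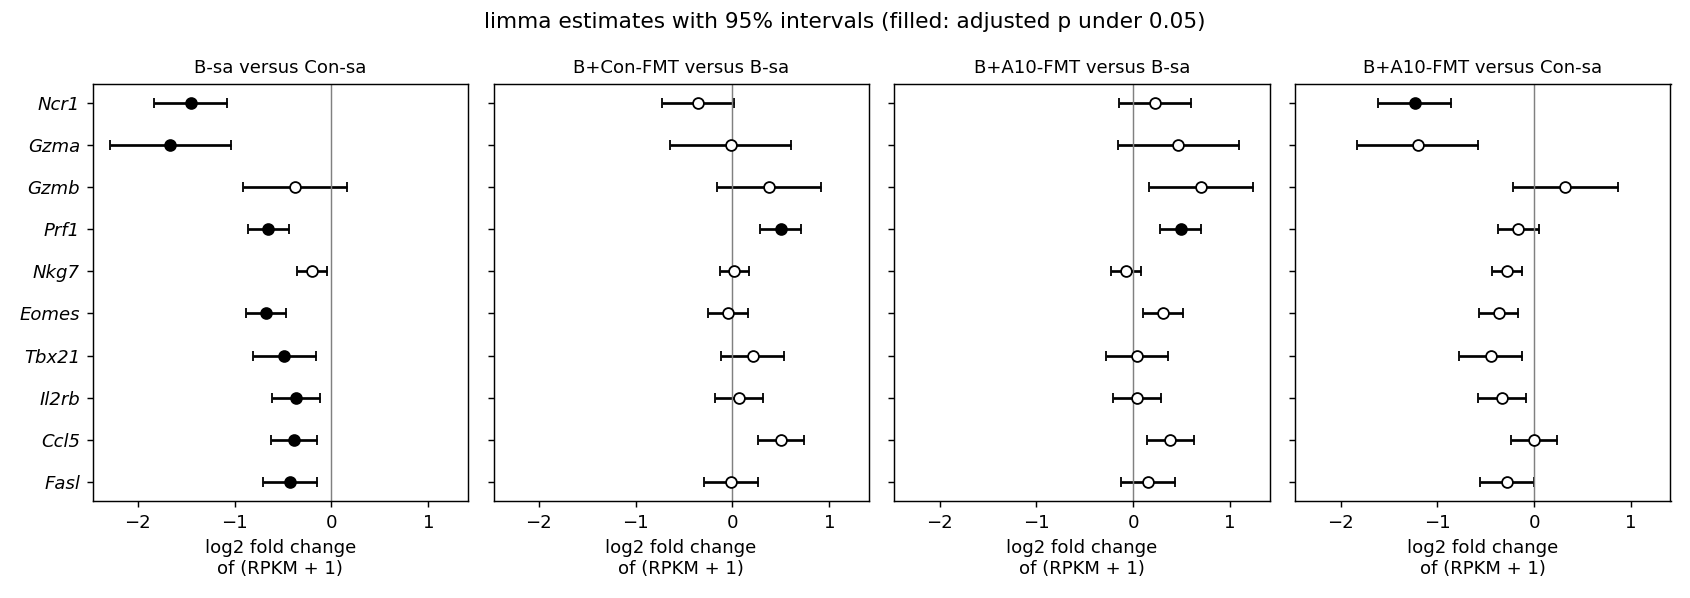
Log2 fold change of RPKM + 1 (x axis) of each gene (y axis) in 4 comparisons; points are limma estimates, bars 95% intervals, and filled points have an adjusted p under 0.05. In B-sa versus Con-sa 8 points are filled and all 10 lie below 0, whereas against B-sa only Prf1 is filled in either FMT group.

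Other cell types of the spleen moved in B-sa versus Con-sa as well. Of 8 B cell genes, 5 were called lower and 0 higher, among them Cd22 (-0.45), Cd79b (-0.42) and Ms4a1 (-0.38), and their summed level was 2071 to 2286 RPKM in Con-sa and 1580 to 1905 in B-sa. Of 8 neutrophil genes, 2 were called higher, the granule proteins Camp (1.13) and Ltf (1.09), and all 8 had an unadjusted p under 0.05. The count called higher was 1 with equal totals outside the globin genes, 4 with median-of-ratios scaling and 7 by limma without trend and robust settings. The summed level of the list was 2040 to 2117 RPKM in Con-sa and 3634 to 5950 in B-sa. The 14 genes of the T cell receptor and its co-receptors had a median of -0.03, and 1 was called lower, the CD8 beta chain Cd8b1 (-0.39, adjusted p = 0.0332), with 0 called higher. Their summed level overlapped between the groups, at 434.9 to 517.6 RPKM in Con-sa and 430.5 to 535.1 in B-sa. The part of the B cell and neutrophil shifts in the fall of the cytotoxic genes was not tested.

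The complex of lectin receptor genes, which the 10 genes lie outside of, gave a second set of genes. Many are genes of natural killer cells, but the list, which includes Klra17, is not limited to these cells. Of 20 tested, 15 were called lower after busulfan and 0 higher, and all 20 had a log2 fold change below 0, with a median of -0.78. The largest were Klra4 (-1.36, adjusted p = 0.00283), Klrc3 (-1.34, adjusted p = 0.00764) and Klra9 (-1.21, adjusted p = 0.00414). Their summed level was 88.99 to 95.57 RPKM in Con-sa and 41.4 to 49.45 in B-sa. Members of this family are close copies of each other and the stock is outbred, so the level of a single receptor gene is uncertain.

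Of 12 tested genes of granule contents and secretion, 2 were called lower and 0 higher in B-sa, with a median of -0.03. They were Ctsw (-0.57, adjusted p = 0.018), a cathepsin made by cytotoxic cells, and Lyst (-0.30, adjusted p = 0.0162), which regulates the size of lysosomes in many cell types. The other granzymes that passed the filter, Gzmk at 2.24 ± 0.696 RPKM in Con-sa and Gzmm at 1.24 ± 0.0321, gave 2.33 ± 0.782 and 1.10 ± 0.293 in B-sa and were not called. Of 17 activating receptor and adaptor genes, 1 was called lower, the kinase Syk (-0.37, adjusted p = 0.0055), which B cells also use. Among 15 interleukin receptor and signalling genes, 4 were called lower, led by the interleukin 18 receptor chain Il18rap (-0.57), the interleukin 7 receptor Il7r (-0.33), which T cells need for survival, and the interleukin 12 receptor chain Il12rb2 (-0.33). The calls of Il7r and Il12rb2 were lost with median-of-ratios scaling.

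Of 11 tested transcription factor genes of these cells other than the T-box pair, 3 were called lower in B-sa and 0 higher. Runx3, which acts in cytotoxic T cells and natural killer cells, fell from 25.4 ± 0.485 to 18.9 ± 0.455 RPKM (-0.41, adjusted p = 0.00296). Ets1 (-0.36) and Irf2 (-0.19) were the others, and that of Irf2 was lost with median-of-ratios scaling. Of 8 death receptor genes, Fas among them (0.04), 0 were called by limma and 0 by limma without trend and robust settings, and 1 had an unadjusted p under 0.05. Of 11 tested genes of cytokines, chemokines and their receptors, 1 was called lower, S1pr5, the sphingosine phosphate receptor that natural killer cells use to leave lymphoid tissue. It fell from 2.33 ± 0.235 to 0.743 ± 0.0611 RPKM (-0.93, adjusted p = 0.0036). Ifng did not pass the filter, at 0.76 to 1.44 RPKM in Con-sa and 0.37 to 0.68 in B-sa.

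**Figure D3:**
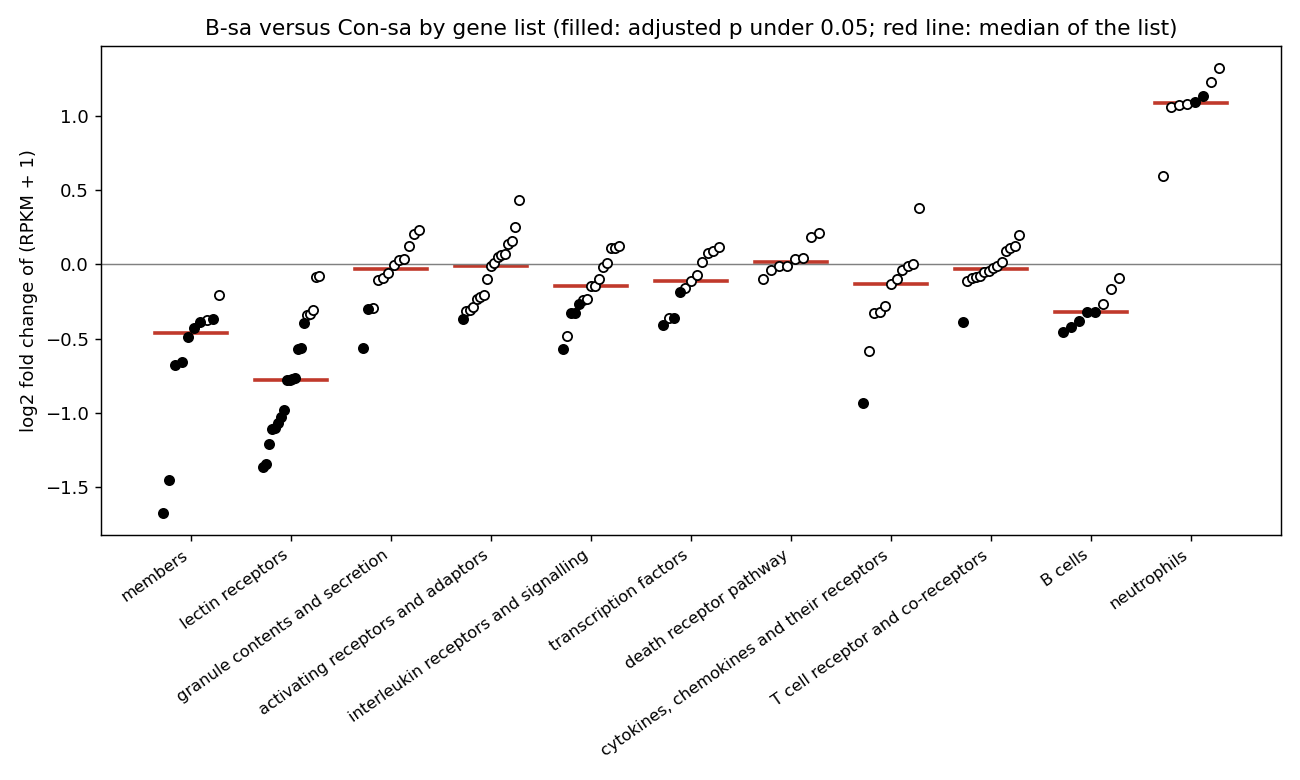
Log2 fold change of RPKM + 1 in B-sa versus Con-sa (y axis) of the tested genes of 11 lists (x axis); each point is a gene, filled points have an adjusted p under 0.05 and red lines mark the median of a list. The 10 cytotoxic genes (members) and the lectin receptors have medians of -0.46 and -0.78, the T cell list lies around 0 and the neutrophil list lies above 0 with 2 filled points.

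B+Con-FMT versus B-sa asked whether FMT from untreated donors moved these genes. Prf1 alone among the 10 was called higher and 0 were called lower, with 0.623% of all genes called higher and 0.221% lower (79 and 28 genes). With totals outside the globin genes made equal, 67 genes were called higher and 113 lower, and Prf1 was still called higher. Its call was lost with no filter (adjusted p = 0.0638), with 2 groups in the fit (adjusted p = 0.0577) and with curated transcripts alone (adjusted p = 0.149). Prf1 measured 4.42, 3.89 and 4.42 RPKM in B+Con-FMT against 2.62 to 2.76 in B-sa, so that the groups did not overlap (0.50 ± 0.10, adjusted p = 0.0381). It reached 87.6% of the Con-sa level. The call was lost without any one of the B+Con-FMT mice, without B-sa replicate 2 or 3 and without Con-sa replicate 1, with an adjusted p of up to 0.155, and the fold change stayed between 0.47 and 0.55. Ccl5, at 141.33, 139.59 and 107.78 RPKM, also lay above every B-sa mouse (0.50 ± 0.11, adjusted p = 0.0578), and its call appeared without B-sa replicate 1 (adjusted p = 0.0155) and without B+Con-FMT replicate 3 (adjusted p = 0.0142).

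The other 8 genes had adjusted p-values from 0.302 to 0.985 in this comparison. Ncr1 stood lower still in B+Con-FMT, at 3.15, 2.51 and 3.29 RPKM, with no overlap with B-sa but no call (-0.35, 95% interval -0.73 to 0.02). Gzma, at 9.84, 20.61 and 17.18 RPKM, spread to both sides of the B-sa range (-0.02, interval -0.64 to 0.61). Eomes, at 1.92, 2.07 and 1.98 RPKM, overlapped with B-sa (-0.05, interval -0.25 to 0.16). Tbx21 measured 5.54, 8.17 and 5.38 RPKM, with replicate 2 within the Con-sa range and the others within that of B-sa (0.21, interval -0.11 to 0.53). Il2rb, at 20.11, 19.07 and 17.67 RPKM, and Nkg7, at 35.39, 35.91 and 39.28 RPKM, overlapped with B-sa (0.07 and 0.02). Gzmb measured 2.03, 3.69 and 2.17 RPKM, with replicate 2 above every Con-sa mouse and the others within the B-sa range (0.38, interval -0.16 to 0.91). All 3 mice were higher than B-sa in 2 of the 10 genes, Prf1 and Ccl5, as in 10.4% of all genes, and lower in 1, Ncr1, as in 9.05%.

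The summed levels of T cell genes and of acinar genes were also higher in the B+Con-FMT mice. The T cell list summed to 550.1 to 678.4 RPKM, above each B-sa mouse, with 1 of 14 genes called higher, Cd3e (0.48, adjusted p = 0.0492), a call that limma without trend and robust settings did not make. Acinar RNA summed to more than in any B-sa mouse, with 0 of 10 acinar genes called by limma, with or without trend and robust settings, and all 10 at an unadjusted p under 0.05. The part of either in the Prf1 values was not tested.

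B+A10-FMT versus B-sa gave the matching test for FMT from AOS-dosed donors. Again Prf1 was the single gene of the 10 called higher and 0 were called lower, where 4.0% of all genes were called higher and 1.27% lower (507 and 161 genes). With median-of-ratios scaling 280 genes were called higher and 353 lower, and Prf1 was still called higher. Its call was lost with 2 groups in the fit (adjusted p = 0.0686) and with curated transcripts alone (adjusted p = 0.0998). Prf1 measured 3.76, 3.80 and 5.15 RPKM (0.49 ± 0.10, adjusted p = 0.0185) and averaged 87.5% of Con-sa. The call was lost without B-sa replicate 2 (adjusted p = 0.0624) and kept without each of the other 11 mice. All 3 mice lay above all B-sa mice in 4 of the 10 genes, Gzmb, Prf1, Eomes and Ccl5, as in 19.7% of all genes. Gzmb measured 2.49, 4.84 and 3.30 RPKM (0.70, 95% interval 0.16 to 1.23, adjusted p = 0.118), Eomes 2.58, 2.51 and 3.46 (0.31, interval 0.10 to 0.52, adjusted p = 0.0736) and Ccl5 113.30, 122.76 and 119.04 (0.38, interval 0.14 to 0.62, adjusted p = 0.0616). These 3 differences were not called.

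The B+A10-FMT mice differed among themselves in Ncr1 and Gzma. Ncr1 measured 3.10, 5.85 and 6.32 RPKM, with replicate 1 below the B-sa range and the other two above it (0.22, adjusted p = 0.452). Gzma measured 14.71, 28.47 and 23.90 RPKM, replicate 1 again within the B-sa range and the others above it (0.46, adjusted p = 0.335). Without replicate 1 Ncr1 was called higher than B-sa (0.48, adjusted p = 0.0254) and Gzma was not (0.72, adjusted p = 0.14). Tbx21, at 4.96, 5.25 and 6.19 RPKM, and Il2rb, at 18.06, 16.73 and 20.87, stayed within the range of B-sa (0.04 for both, with a change of sign under median-of-ratios scaling), as did Nkg7 with 32.82, 37.03 and 33.37 RPKM (-0.08). Fasl, at 1.08, 1.48 and 1.11 RPKM, overlapped with B-sa as well (0.15, adjusted p = 0.486).

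In the wider pathway, S1pr5 (0.55, adjusted p = 0.04) and 3 lectin receptor genes, Klri2 (0.60), Klrb1c (0.52) and Klra17 (0.42), were called higher in B+A10-FMT mice than in B-sa mice. Of 11 transcription factor genes 3 were called higher, Zeb2 (0.30), which acts late in natural killer cell maturation, Ets1 (0.29) and Runx3. The chemokine receptor gene Ccr3 (0.47) and 3 of 7 red pulp macrophage genes, Slc40a1 (0.55), Spic (0.50) and Csf1r (0.46), were called higher as well. With median-of-ratios scaling the calls of S1pr5, Ccr3, Csf1r, Klrb1c, Klra17, Zeb2, Ets1 and Runx3 were lost in this comparison and that of Klri2 was not, and Ccr3 was not called with equal totals outside the globin genes either. Runx3 was called higher than in B-sa with both FMTs, at 24.2 ± 1.64 RPKM in B+Con-FMT mice (0.34, adjusted p = 0.0164) and 22.3 ± 0.886 in B+A10-FMT mice (0.22, adjusted p = 0.04). Il7r was also called higher with both (0.49 in each), and with the control FMT limma without trend and robust settings did not call it. The FMT comparisons share the B-sa mice, so these results are not independent.

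B+A10-FMT versus B+Con-FMT compared the donor types directly. Eomes was the only one of the 10 genes called higher (0.36 ± 0.10, adjusted p = 0.0357) and 0 were called lower, where 7.58% of all genes were called higher and 2.78% lower (960 and 352 genes). Median-of-ratios scaling gave 567 higher and 690 lower and equal totals outside the globin genes 2100 and 239, and Eomes was called higher under both. It was not called with 2 groups in the fit (adjusted p = 0.0739) or with curated transcripts alone (adjusted p = 0.193). A block for replicate number also ended the Eomes call (adjusted p = 0.0523). Its values of 2.51 to 3.46 RPKM did not overlap with 1.92 to 2.07 in B+Con-FMT, as in 23.8% of all genes. The call was lost without any one of the B+Con-FMT mice and without B+A10-FMT replicate 2 or 3, with an adjusted p of up to 0.109. Ncr1 was not called (0.57 ± 0.17, adjusted p = 0.0528), and without B+A10-FMT replicate 1 it was (0.83, adjusted p = 0.000782). Prf1 gave -0.01, with an interval of -0.22 to 0.20 and a sign that changed with equal totals, and the 7 genes besides Prf1, Eomes and Ncr1 had adjusted p-values from 0.282 to 0.877.

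Genes of the wider pathway were called in both directions between the FMT groups. Those higher in the B+A10-FMT mice included Il12rb2 (0.53, adjusted p = 0.00964), Sh2d1b1 (0.46, adjusted p = 0.0191), which encodes the signalling adaptor EAT-2 of natural killer cells, and Klri2 (0.72), Klrk1 (0.66) and Klra17 (0.57) of the 4 lectin receptor genes called. Of 11 transcription factor genes, Zeb2 (0.43) and Ets1 (0.25) were called higher and Gata3, a factor of T cell and innate lymphoid cell development, lower (-0.32, adjusted p = 0.0374). Of 11 genes of cytokines, chemokines and their receptors, the chemokine receptors Ccr3 (0.73) and Cx3cr1 (0.41) were called higher and Tnf, the tumour necrosis factor gene, lower (-0.47, adjusted p = 0.0367). Of 8 death receptor genes, 1 was called, Fas itself, which was lower (-0.40, adjusted p = 0.0329). The calls of Gata3, Tnf and Fas held under both other scalings, where that of Ets1 was lost with median-of-ratios scaling, and each of the 3 was lost without any one of the B+A10-FMT mice. Red pulp macrophage genes moved with them. In that list 6 of 7 were called higher, led by the iron exporter Slc40a1 (0.68), the heme oxygenase Hmox1 (0.58) and the receptor Csf1r (0.46), with 3 of the 7 called under median-of-ratios scaling, and the summed level was 845.2 to 1007 RPKM against 561.8 to 689.5 in B+Con-FMT. The part of the red pulp share of the sample in the Ncr1 and Eomes values was not tested.

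Against Con-sa, the FMT groups differed in how many of the genes were called lower. In B+Con-FMT 4 of the 10 were, Ncr1 (-1.81 ± 0.17, adjusted p = 0.000349), Gzma (-1.68 ± 0.28, adjusted p = 0.0106), Eomes (-0.72 ± 0.10, adjusted p = 0.00195) and Fasl (-0.44 ± 0.13, adjusted p = 0.0496), with 6.57% of all genes called lower and 2.30% higher (832 and 292 genes). Median-of-ratios scaling gave 550 lower and 556 higher with 3 of the 10 genes called lower, and equal totals 1637 and 199 with 5 of the 10. Fasl, at 0.92, 0.89 and 1.13 RPKM, kept this call in 2 of the 12 fits without 1 mouse, those without B-sa replicate 1 or 2, and its adjusted p reached 0.142. In B+A10-FMT 1 of the 10 was called lower, Ncr1 at 39.5% of Con-sa (-1.23 ± 0.17, adjusted p = 0.0148), with 0.292% of all genes called lower and 0.118% higher. That call was lost without Con-sa replicate 1 or 3, with an adjusted p of up to 0.0579, and with 2 groups in the fit (adjusted p = 0.0839) or curated transcripts alone (adjusted p = 0.0716).

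Genes of the wider pathway were also set against Con-sa. With the control FMT 16 of 20 lectin receptor genes were called lower, S1pr5 (-0.75), Il18rap (-0.65), Il12rb2 (-0.51) and Sh2d1b1 (-0.41) too, whereas Fas (0.48), Gata3 (0.30, not called with equal totals) and 4 of 14 T cell genes, led by the signalling proteins Lat (0.63) and Lck (0.55), were called higher. With the AOS FMT 5 of 20 lectin receptor genes were called lower, led by Klra4 (-1.38), and of the 74 tested genes of the other 6 pathway lists 0 were called by limma, with or without trend and robust settings, while 12 had an unadjusted p under 0.05.

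A missing call is not a return to the Con-sa level. Against Con-sa an unadjusted limma p under 0.05 held for 6 of the 10 genes with the control FMT and 7 with the AOS FMT. The median log2 fold changes over the 10 genes were -0.29 and -0.31. In each FMT group 7 of the 10 genes had all 3 mice below all Con-sa mice, as did 23.6% of all genes for the control FMT and 9.91% for the AOS FMT. Gzma in B+A10-FMT stood at 43.7% of Con-sa with no overlap (-1.20, 95% interval -1.83 to -0.58, adjusted p = 0.134), and Eomes at 72.2% (-0.37, interval -0.58 to -0.16, adjusted p = 0.134). Il2rb stood at 80.5% of Con-sa with the control FMT and 78.8% with the AOS FMT, and Nkg7 at 87.8% and 82.0%, each without overlap and without a call. The interval of Ccl5 in B+A10-FMT mice was centred near 0 (-0.0042, interval -0.24 to 0.24), and so was that of Gzmb in B+Con-FMT mice (0.000685, interval -0.54 to 0.54). The mean of log2(RPKM + 1) over the 10 genes, given as a description, was 3.77 ± 0.08 in Con-sa, 3.10 ± 0.09 in B-sa mice, 3.22 ± 0.09 in B+Con-FMT mice and 3.37 ± 0.17 in B+A10-FMT mice (SD, n = 3).

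Because the genes moved by different amounts, their proportions within a mouse changed. The pairs described here were picked with their values known. The ratio of Ncr1 to Nkg7 was 0.307 ± 0.00801 in Con-sa and 0.112 ± 0.00881 in B-sa, 2.74-fold lower, and lay at 0.0809 ± 0.00987 in B+Con-FMT mice and 0.147 ± 0.0484 in B+A10-FMT mice. Gzma exceeded Gzmb by 15.86-fold or more in each Con-sa mouse and by 12.29-fold or less in each B-sa mouse, with 4.85-fold to 7.92-fold in B+Con-FMT mice and 5.88-fold to 7.24-fold in B+A10-FMT mice. Ccl5 stood at 9.23 ± 0.434 times the level of Ncr1 in Con-sa mice, 22.3 ± 1.90 in B-sa mice, 44.4 ± 11.4 in B+Con-FMT mice and 25.5 ± 9.67 in B+A10-FMT mice. The ratio of Eomes to Tbx21 was 0.505 ± 0.0287 in Con-sa, 0.401 ± 0.0758 in B-sa mice, 0.323 ± 0.061 in B+Con-FMT mice and 0.519 ± 0.0405 in B+A10-FMT mice. The mice of B-sa and Con-sa did not overlap in any of these 4 ratios, which are given as descriptions.

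**Figure D4:**
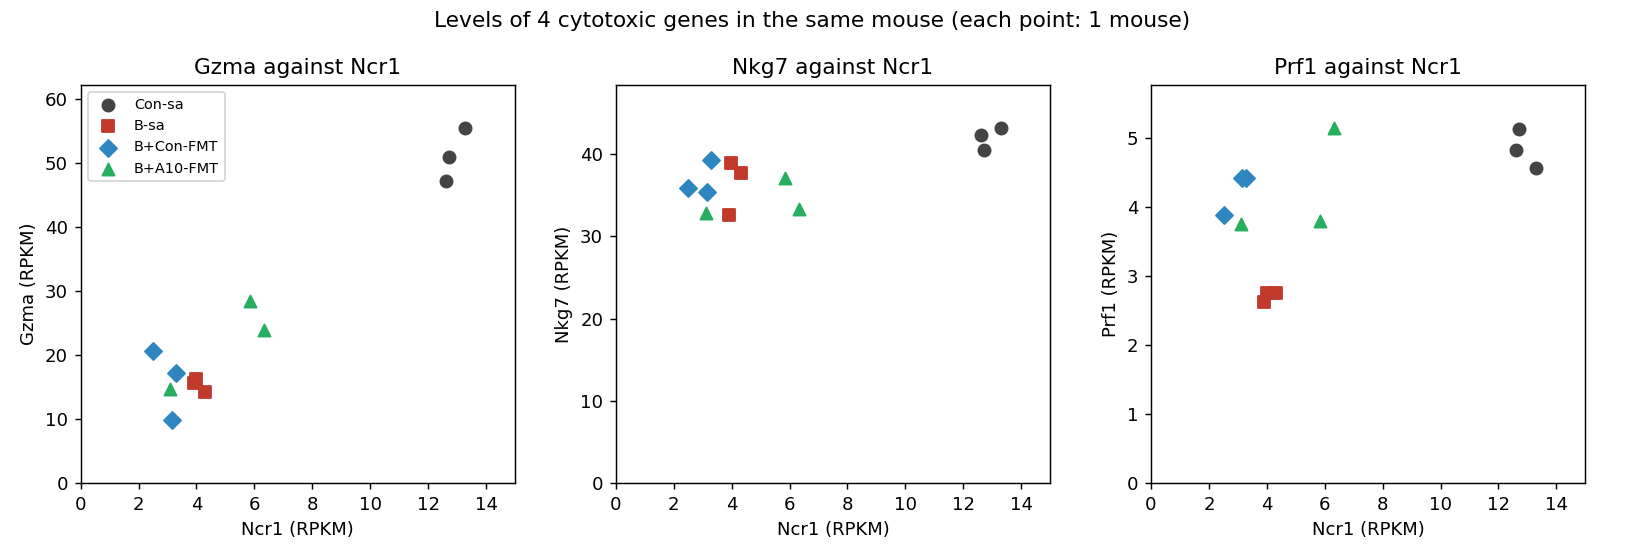
RPKM of Gzma, Nkg7 and Prf1 (y axes, from 0) against that of Ncr1 (x axes, from 0) in the same mouse; each point is 1 of 12 mice, with colour and shape giving the group. Con-sa mice stand apart at 12.62 RPKM of Ncr1 or more, Nkg7 spans a narrow range, from 32.62 to 43.20 RPKM with the Con-sa mice on top, and for Prf1 both FMT groups lie above B-sa.

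Gzma, Gzmb, Nkg7, Tbx21 and Ccl5 were each listed as a single transcript. The curated Ncr1 transcript averaged 11.7 RPKM in Con-sa and 3.64 in B-sa, and the predicted one 1.18 and 0.433. For Prf1 the curated transcript averaged 4.07 and 2.13 RPKM, and for Eomes the most abundant of 3 transcripts averaged 3.29 and 1.48, then 2.44 in the B+A10-FMT mice. The Il2rb total was dominated by a predicted transcript, at 13.2 RPKM in Con-sa and 10.1 in B-sa, while the curated one averaged 8.11 and 7.37. How reads were shared out between transcripts of a gene was decided in the authors' counting, so a split within a gene is less certain than its sum.

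Among the 10 genes, levels over the 12 mice moved closely together for Ncr1, Gzma and Eomes (Pearson's r = 0.92 for Ncr1 with Gzma and with Eomes, 0.89 for Gzma with Eomes) and for Il2rb with Tbx21 (0.84). Gzmb and Ccl5 had an r of 0.13 and 0.09 with Ncr1, whereas Ccl5 had 0.68 with Prf1, 0.57 with Tbx21 and 0.54 with Gzmb. All points come from the same 12 libraries and Con-sa stands apart for Ncr1, so these values describe the order of the groups and carry no test.

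The genes outside the set whose pattern was most like it, by Pearson's r over the 12 mice between log2(RPKM + 1) and the mean z-score of the 10 genes, were Cd79b and Unc119b (r = 0.959 for both), Rfx3 (0.955), Snx9 (0.954) and Sbk1 (0.952). The same limit holds for these values. Cd79b encodes a signalling chain of the B cell receptor. It measured 449 RPKM on average in Con-sa, 335 in B-sa mice, 369 in B+Con-FMT mice and 370 in B+A10-FMT mice.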

How the data were processed

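RNA of 12 spleens was analysed, grouped by the sample labels. The authors enriched polyadenylated RNA, sequenced it, mapped the reads and deposited RPKM for 60654 RefSeq transcripts per mouse. The study's methods name SOAPaligner, whereas the submitters' processing notes name HISAT, Bowtie2 and mm10, and which of them made the values is unsettled. The RPKM of all transcripts of a gene were summed. A gene was tested if 3 or more mice had an RPKM of 1 or more, which left 12671 of 18221 genes. The test was limma 3.58.1 in R 4.3.3 on log2(RPKM + 1), two-sided, with trend and robust settings, a factor for group and 1 fit for all mice. Fold changes on this scale understate the change of low genes. Benjamini-Hochberg adjustment ran over all genes tested, and the 6 comparisons share mice. Read counts were not used here, so no count test was run and precision rests on 3 mice per group. The labels do not say whether litters or cages were shared, so p-values measure the spread between these mice. Alternatives were a pseudocount of 0.1, other filters, a replicate block, fits with 2 groups, other scalings, curated transcripts alone, limma without trend and robust settings, and each mouse left out.

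The 10 genes and the lists of pathway and cell type genes were chosen with earlier results of these data known. Named were all 10, up to 3 called genes of largest change per list and comparison, the 5 genes most like the set, and markers of cell types that moved. Fas, Gzmk, Gzmm, Ifng and the ratios were named after their values were seen. Promoters came from RefSeq (GRCm38.p6). Tables and plots were made with Python 3.11.15 (pandas 2.3.3, NumPy 2.4.6, matplotlib 3.10.9, SciPy 1.17.1).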

Additional observations from a re-analysis of the deposited data

How the results depend on the processing

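Of the calls against Con-sa, those of Ncr1, Gzma, Prf1 and Eomes in the B-sa mice and of Ncr1, Gzma and Eomes in the B+Con-FMT mice held under all 21 alternatives. Those of Tbx21, Il2rb, Ccl5 and Fasl did not. Of the 8 genes called lower after busulfan, 4 were called with no filter or curated transcripts alone, and 5 under the replicate block, median-of-ratios scaling or limma without trend and robust settings. Against B-sa, the single gene called higher became 0 for the control FMT with no filter, with 2 groups in the fit and with curated transcripts, and 2 under the block. For the AOS FMT it became 0 with 2 groups and curated transcripts, and 2 under the block and with equal totals outside the globin genes. Between the FMT groups it became 0 under the block, with 2 groups and with curated transcripts, and 2 with equal totals and with RPKM of at least 1 in every mouse. The gene called lower in the B+A10-FMT mice against Con-sa became 0 with 2 groups and curated transcripts, and 2 under the block. Fasl could not be tested where every mouse had to reach an RPKM of 1.

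Replicate numbers belong to different mice, and deviations of same-numbered mice correlated at -0.373 to 0.303 (mean -0.04), so they do not pair the mice, and of 18 cases 5 correlated best with the own number. Under the block Ccl5 was called higher than B-sa with both FMTs (adjusted p = 0.0383 for B+Con-FMT and 0.0474 for B+A10-FMT), and the genes called for B+A10-FMT against B-sa fell from 668 to 417.

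Over all genes, curated transcripts alone gave 741 calls in place of 1838 for B-sa against Con-sa, 25 in place of 107 for B+Con-FMT against B-sa, 203 in place of 668 for B+A10-FMT against B-sa, 546 in place of 1312 between the FMT groups, 382 in place of 1124 for B+Con-FMT against Con-sa and 1 in place of 52 for B+A10-FMT against Con-sa. With 2 groups in the fit the first 3 of these were 1003, 32 and 184. Equal totals gave 180 for B+Con-FMT against B-sa, 2339 between the FMT groups and 1836 for B+Con-FMT against Con-sa. No filter gave 71 for B+Con-FMT against B-sa, and RPKM of at least 1 in every mouse gave 29 for B+A10-FMT against Con-sa. With a pseudocount of 0.1 the mean over the 10 genes moved to -0.79 for B-sa against Con-sa (from -0.67) and -0.64 for B+Con-FMT against Con-sa (from -0.55). The causes were not tested.

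Signs turned for uncalled values near 0. With equal totals these were, in log2, Nkg7 at -0.0307 (B+Con-FMT against B-sa), Prf1 at 0.0363 and Il2rb at 0.0226 (between the FMT groups), Gzmb at -0.0349 (B+Con-FMT against Con-sa) and Ccl5 at 0.0043 (B+A10-FMT against Con-sa). With curated transcripts Il2rb was at -0.0022 (B+Con-FMT against B-sa) and -0.10 (B+A10-FMT against B-sa), with median-of-ratios scaling Tbx21 was at -0.0076 and Il2rb at -0.0137 (B+A10-FMT against B-sa), and with a pseudocount of 0.1 Fasl was at 0.0025 (B+Con-FMT against B-sa).

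With each mouse left out in turn, the 10 genes gave 4 to 8 calls lower in B-sa against Con-sa, 0 to 2 higher with either FMT against B-sa and between the FMT groups, and 0 to 2 lower in B+A10-FMT against Con-sa. Calls over all genes ranged from 513 (without B-sa replicate 2) to 2100 (without B-sa replicate 1) for B-sa against Con-sa, from 19 to 466, again without B-sa replicates 2 and 1, for B+Con-FMT against B-sa, from 106 (without B+A10-FMT replicate 2) to 832 (without B-sa replicate 1) for B+A10-FMT against B-sa, from 218 to 1558, without the same mice, between the FMT groups, from 329 (without Con-sa replicate 1) to 1305 (without B-sa replicate 1) for B+Con-FMT against Con-sa and from 1 to 74 for B+A10-FMT against Con-sa. Uncalled log2 fold changes that crossed 0 ranged, for B+Con-FMT against B-sa, from -0.224 to 0.274 for Gzma, -0.0535 to 0.0695 for Nkg7, -0.036 to 0.222 for Il2rb and -0.161 to 0.0634 for Fasl. For B+A10-FMT against B-sa they ranged from -0.0635 to 0.187 for Tbx21 and -0.0686 to 0.189 for Il2rb, and between the FMT groups from -0.132 to 0.053 for Prf1 and -0.116 to 0.0352 for Il2rb. Against Con-sa they ranged from -0.203 to 0.17 for Gzmb in B+Con-FMT and -0.057 to 0.044 for Ccl5 in B+A10-FMT.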

Other observations

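Of 7 listed genes of plasmacytoid dendritic cells, which make type I interferon in response to viruses, 3 were called lower in the B-sa mice by limma and 0 higher. Their summed level overlapped, at 482.2 to 505.4 RPKM in the Con-sa mice and 459.2 to 490 in the B-sa mice, and the median log2 fold change was -0.25. Ly6d, not called, had the opposite sign (0.19). The 3 were Siglech (-0.76, adjusted p = 0.0027), a surface lectin of these cells, Tcf4 (-0.25) and Spib (-0.30), which B cells also express. Siglech averaged 16.1 RPKM in Con-sa, 9.09 in B-sa and 5.89 in the B+Con-FMT mice. It was called higher in the B+A10-FMT mice than with the control FMT (0.90, adjusted p = 0.000545).

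Genes of the kidney, which lies close to the spleen, followed the groups too. Their 5 listed genes summed to 75.57 to 117.4 RPKM in the Con-sa mice, 7.78 to 15.13 in the B-sa mice, 17.37 to 62.07 in the B+Con-FMT mice and 0.83 to 3.33 in the B+A10-FMT mice. Kap, the kidney androgen-regulated protein, carried nearly all of this sum and was called lower after busulfan (-3.00, adjusted p = 0.0104). Among mast cell genes Kit, also a receptor of blood cell precursors, was called higher with the AOS FMT than with the control FMT (0.42, adjusted p = 0.002).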
